A study of Mus musculus with 3 samples.

Results

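The CC chemokines are small secreted proteins that carry a pair of adjacent cysteines near their amino end and attract leukocytes through G-protein-coupled receptors. Macrophages are a main source of several of them, and lipopolysaccharide acting on TLR4 is a known inducer of Ccl2, Ccl3, Ccl4 and Ccl5. The 10 members described here are Ccl2, Ccl3, Ccl4, Ccl5, Ccl6, Ccl7, Ccl9, Ccl12, Ccl22 and Ccl24, chosen by gene symbol, and all 10 had a row among the 55536 annotated genes. The rule that picks them uses symbols and no measured value, though it was written with earlier results of these data known.

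Nuclear RNA was taken from macrophages that had been grown from the bone marrow of C57BL/6J mice, with no engineered allele in the labels. Lipid A, the TLR4-binding moiety of lipopolysaccharide, was given to all cells for 12 h at 100 ng/ml and washed out for 12 h, after which 100 ng/ml was given for a further 15 min. The fraction is labelled nuclear and, in its description, nucleoplasmic, and ribosomal RNA was depleted before total RNA-seq. The 3 libraries form 1 group of biological replicates 1, 2 and 3 that share 1 donor identifier. No source used here says if they derive from different animals, so their spread may be technical, and age and sex were not collected. The design has no untreated or single-stimulus library here, so every value is a level with its spread, no test was run, and nothing is said of induction.

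The libraries held 23826101, 19312032 and 21730342 expected counts (the authors' estimated counts per gene) over annotated genes in replicates 1, 2 and 3. Replicate 2 was made with 500 ng of RNA and the others with 1 µg, so input and the identity of replicate 2 cannot be told apart. All 10 macrophage markers (among them Lyz2, Adgre1, Csf1r and Cd68) reached 1 TPM (transcripts per 1000000, a length-normalised share of the library) in all 3 libraries, with summed TPM between 2423 and 3697. No marker of granulocytes (8 genes), T and NK cells (6), B cells (5), mast cells and basophils (5) or fibroblasts (5) did so, and the summed TPM of each of these lists was between 0 and 3.77. Of 8 dendritic cell markers 1, Batf3, passed, and their summed TPM ranged between 3.90 and 7.89.

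The adjacent cysteine codons that give the family its name are shown for 4 members from the GENCODE M21 transcripts, written 5′ to 3′ in the coding sense with the 2 codons in capitals and 5 codons on each side. The windows let the Ccl6 and Ccl9 pair be set beside 2 more distant members.
Ccl6, chr11:83589371-83589406 (mm10, − strand): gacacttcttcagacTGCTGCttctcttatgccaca
Ccl9, chr11:83575911-83575946 (mm10, − strand): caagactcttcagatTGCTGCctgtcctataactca
Ccl12, chr11:82102619-82102654 (mm10, + strand): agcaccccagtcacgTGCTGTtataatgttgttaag
Ccl22, chr8:94746919-94746954 (mm10, + strand): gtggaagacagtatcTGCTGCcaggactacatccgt

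Counted from the start codon, the pair begins at codon 33 in Ccl12 and 36 in Ccl22, and further in at codon 50 in Ccl6 and codon 57 in Ccl9. The coding sequences of Ccl6 and Ccl9 were the most alike of the 45 pairs of members, at 70.7% identity over aligned bases. Ccl3 and Ccl4 followed at 69.6%, then Ccl7 and Ccl12 at 68.1% and Ccl2 and Ccl7 at 68.0%. No 31-base word of a Ccl2, Ccl3, Ccl4, Ccl7, Ccl12 or Ccl22 transcript occurred in a transcript of another gene. Such words numbered 1 of 1265 in Ccl24-201, 5 of 638 in Ccl5-202 and 18 of 1410 in Ccl6-201. Ccl9-201 had the most, 120 of 2976. Its shared words occurred in transcripts of 1919 other genes, against 1 for Ccl6-201 and 4 for Ccl5-202, so most of those genes were not members.

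Of the 10 members, 8 were detected, meaning that no library was under 1 TPM, against a background of 42.8% of 22028 protein-coding genes. Ccl24 was under 1 TPM in all 3 libraries, and Ccl22 in replicates 2 and 3 but not in replicate 1. In bulk RNA, fewer cells that express a gene and less RNA per cell cannot be told apart. The median log2(TPM + 1) of the 10 members was 5.93 ± 0.33 (SD, n = 3), against 3.25 for the median of the detected protein-coding genes, a difference in level of 3.06, 2.25 and 2.74 in replicates 1, 2 and 3 (mean 2.69). The size of this difference depended on the processing, with a mean of 1.72 by the authors' kallisto-format TPM and 5.49 against all protein-coding genes. The members' TPM summed to 1873, 1110 and 1380 in replicates 1, 2 and 3, with replicate 1 the highest.

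**Figure D1:**
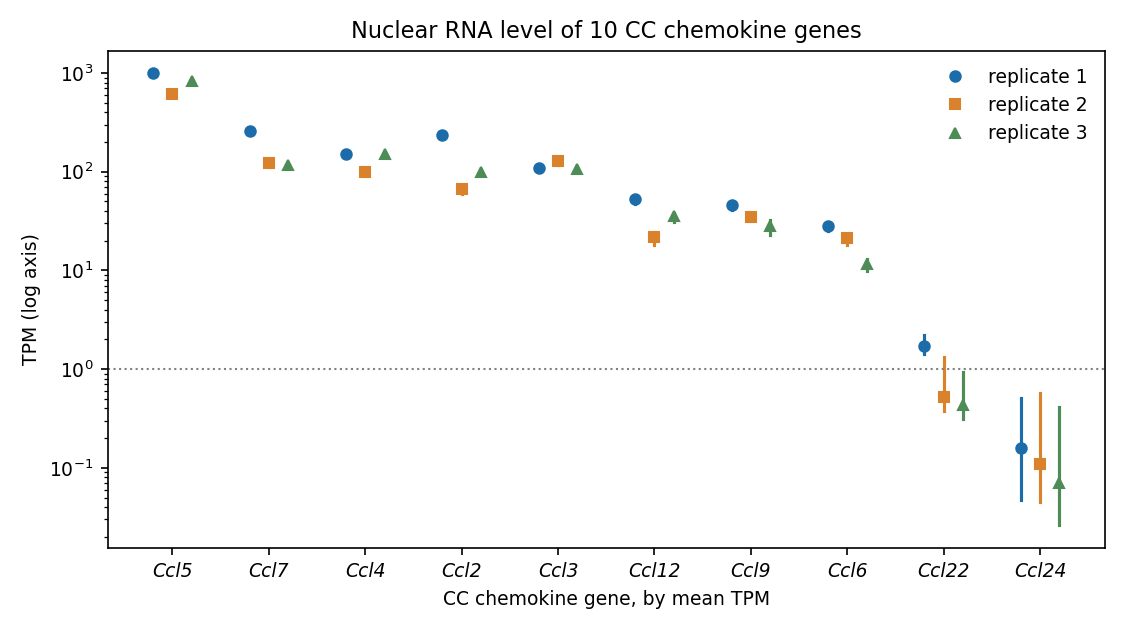
TPM of the 10 members in each library on a log axis. Vertical lines are the credibility intervals of the authors' tool, which belong to the posterior mean and need not contain the point, and the dotted line marks a TPM of 1. Ccl5 lies above all other members in every library and Ccl24 below all others.

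Ccl5, also called RANTES, is a chemokine that attracts T cells and monocytes. It had 991.7, 613.3 and 828.6 TPM in replicates 1, 2 and 3 (811 ± 190, SD, n = 3), from 11437, 5101 and 9541 expected counts. Its lowest library stood above the highest library of every other member, and by mean TPM it ranked 24 among protein-coding genes. Ccl5 held 53.0%, 55.2% and 60.0% of the members' summed TPM in replicates 1, 2 and 3 (56.1% ± 3.61). The authors deposited 2 quantifications, the RSEM-format tables used for all values unless stated and a kallisto-format transcript table. The share of Ccl5 was 50.7% with the kallisto-format values and 38.7% of the expected counts, which are not divided by transcript length.

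Ccl3 and Ccl4, known as MIP-1α and MIP-1β, are close relatives that attract monocytes and T cells. Ccl3 had 109.4, 129.2 and 107.6 TPM (115 ± 12.0, SD, n = 3), the narrowest relative spread of the 10, with a highest-to-lowest ratio of 1.20. A larger ratio was found in 78.3% of detected protein-coding genes. Ccl4 had 151.5, 99.94 and 150.2 TPM (134 ± 29.4), low in replicate 2 and alike in replicates 1 and 3. Within libraries the level of Ccl3 over that of Ccl4 was 0.722, 1.29 and 0.716, so that Ccl3 was the higher gene in replicate 2 and Ccl4 in the others. The kallisto-format ratios had the same order, at 0.726, 1.15 and 0.732. The level of Ccl5 over that of Ccl4 varied less, at 6.55, 6.14 and 5.52.

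Ccl2, Ccl7 and Ccl12 encode ligands of CCR2, the receptor that draws inflammatory monocytes, and are known as MCP-1, MCP-3 and the mouse protein MCP-5. Ccl2 had 234.7, 66.67 and 99.90 TPM in replicates 1, 2 and 3 (134 ± 89.0, SD, n = 3), from 5449, 1124 and 2188 expected counts. Replicate 1 stood well above the other libraries, and the highest-to-lowest ratio of 3.52 was exceeded by 0.413% of detected protein-coding genes. Without replicate 1 the ratio was under 2, and mean rescaled TPM (defined with the spread between libraries) was 392, against 654 over all 3 libraries. Ccl7 had 256.8, 122.9 and 118.2 TPM (166 ± 78.7), high in replicate 1 and close in the other libraries. Ccl12 had 52.65, 21.88 and 35.61 TPM (36.7 ± 15.4), with replicate 1 highest and replicate 2 lowest. The level of Ccl2 over that of Ccl7 was 0.914, 0.543 and 0.845, so Ccl7 was the higher gene in each library by TPM. By expected counts, without division by length, the ratio in replicate 1 was 1.00.

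Ccl6 and Ccl9 encode ligands of CCR1 that mouse myeloid cells produce without a strong stimulus. Ccl9 had 46.04, 34.40 and 28.21 TPM (36.2 ± 9.05, SD, n = 3) and Ccl6 had 27.98, 21.51 and 11.55 TPM (20.3 ± 8.28). Both were lowest in replicate 3 under every scaling used, and Ccl9 was the higher of the pair in every library. The level of Ccl6 over that of Ccl9 was 0.608, 0.625 and 0.409 by TPM. This ratio depended on the quantification. It was 0.357, 0.389 and 0.257 by kallisto-format values, and 0.191, 0.185 and 0.174 by expected counts.

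Ccl22, a ligand of CCR4 that attracts regulatory T cells and is made by dendritic cells and macrophages, had 1.71, 0.52 and 0.43 TPM from 125, 27 and 28 expected counts. Replicate 1 was the highest of its 3 libraries, and without it the mean rescaled TPM was 2.21, against 4.34 over all 3. The summed TPM of the 8 dendritic cell markers was 7.89, 3.90 and 6.54, also highest in replicate 1, and their part in the Ccl22 values was not tested. The markers did not share an order, since Fscn1 had 2.08, 0.54 and 0.74 TPM, Batf3 had 2.78, 1.08 and 3.83 and Dpp4 had 0.18, 0.27 and 0.25. Ccl24, or eotaxin-2, a ligand of CCR3 that attracts eosinophils, had 0.16, 0.11 and 0.07 TPM from 3, 3 and 2 expected counts, at or under a floor of 3 counts in every library, so its libraries cannot be ordered.

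By mean TPM the order was Ccl5, Ccl7, Ccl4, Ccl2, Ccl3, Ccl12, Ccl9, Ccl6, Ccl22 and Ccl24. The ranges of the 3 libraries did not overlap for 5 of the 9 neighbouring pairs, namely Ccl5 over Ccl7, Ccl3 over Ccl12, Ccl9 over Ccl6, Ccl6 over Ccl22 and Ccl22 over Ccl24. Ccl7, Ccl4, Ccl2 and Ccl3 overlapped with their neighbours in this stretch, as did Ccl12 and Ccl9. Within libraries, Ccl7 was above Ccl4 in 2 of 3, Ccl4 above Ccl2 in 2 and Ccl2 above Ccl3 in 1. Ccl12 was above Ccl9 in 2. None of these neighbouring orders therefore held in every library, whereas Ccl7 was above Ccl2 in all 3. With the kallisto-format values 2 of 9 pairs did not overlap, Ccl3 came above Ccl2, Ccl9 above Ccl12 and Ccl24 above Ccl22.

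The spread between libraries was wide for part of the family. The highest library was at least 2 times the lowest for 4 of the 8 detected members (Ccl2, Ccl6, Ccl7 and Ccl12), against a background of 6.44% of 9434 detected protein-coding genes. The median ratio of those genes was 1.37. This count rested on replicate 1. Without it, 0 of the 8 members were past a ratio of 2, against 2.66% of the same genes, and the largest member ratio was 1.86, for Ccl6. Without replicate 2 the count was 3 (Ccl2, Ccl6 and Ccl7), against 2.46% of the same genes. Without replicate 3 it was 3 (Ccl2, Ccl7 and Ccl12), against 3.66%. Leaving out a library can lower such a ratio but cannot raise it. These omissions were chosen after seeing the data. Protein-coding genes not encoded in the mitochondrion held 19.9%, 22.2% and 20.6% of all TPM in replicates 1, 2 and 3. Median log2(TPM + 1) of detected protein-coding genes was 3.20, 3.36 and 3.19. After rescaling TPM to a sum of 1000000 over the protein-coding genes not encoded in the mitochondrion, the same 4 members were past a ratio of 2. The share of detected protein-coding genes past it was then 5.89%. The rescaled ratios were 3.91 for Ccl2, 2.32 for Ccl7, 2.68 for Ccl12 and 2.51 for Ccl6.

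Replicate 1 was the highest library for 9 of the 10 members by TPM and after rescaling, the exception being Ccl3, which was highest in replicate 2. Among these, Ccl24 rests on too few counts to be ordered. Over detected protein-coding genes, after rescaling, replicate 1 was highest for 32.9%, replicate 2 for 44.5% and replicate 3 for 22.6%. In the kallisto-format values Ccl3 and Ccl4 were highest in replicate 3, and Ccl24 in replicate 2. The lowest library was not the same for all members. After rescaling, replicate 2 was lowest for Ccl2, Ccl4, Ccl5, Ccl7 and Ccl12, and replicate 3 for Ccl6, Ccl9 and Ccl22, in the RSEM-format and in the kallisto-format values. Ccl3 was lowest in replicate 3 by RSEM-format and in replicate 2 by kallisto-format values, and for Ccl22 the lower libraries had 27 and 28 counts and cannot be ordered. Over detected protein-coding genes, replicate 1 was lowest for 30.8%, replicate 2 for 26.7% and replicate 3 for 42.5%. By unscaled TPM the lowest library of Ccl7 was replicate 3. The summed TPM of the macrophage markers was 3697, 3161 and 2423 in replicates 1, 2 and 3, also highest in replicate 1, and its part in these values was not tested.

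**Figure D2:**
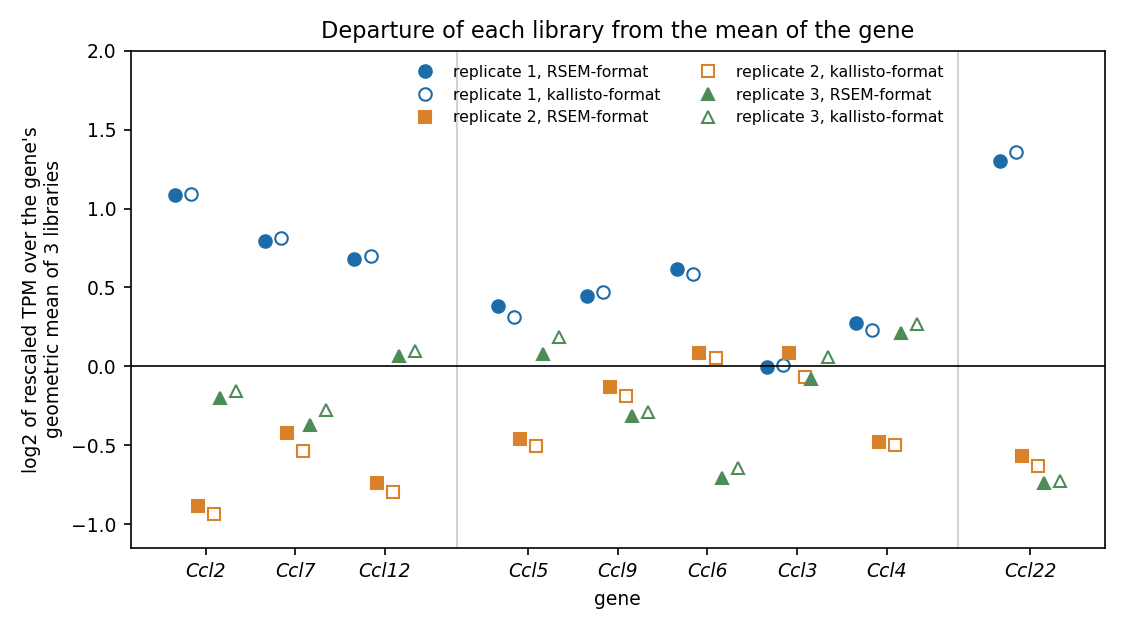
Log2 of rescaled TPM over the geometric mean of the gene's 3 libraries, for 9 members in order along each locus, with Ccl24 left out for its low counts. Filled symbols are RSEM-format and open symbols kallisto-format values, and vertical lines separate the 2 chromosome 11 groups and chromosome 8. Ccl2 reaches 1.08 in replicate 1 and −0.89 in replicate 2, while Ccl3 stays within 0.09 of 0.

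Of the 10 members, 8 lie on chromosome 11 in 2 groups (mm10, GENCODE M21). Ccl2 (chr11:82035571-82037453), Ccl7 (chr11:82045712-82047525) and Ccl12 (chr11:82101845-82103400) are on the + strand within 67830 bp, with Ccl11 and Ccl8 beside them. Ccl5 (chr11:83525778-83530518), Ccl9 (chr11:83572919-83578636), Ccl6 (chr11:83587882-83593087) and Ccl3 (chr11:83647844-83649355) on the − strand and Ccl4 (chr11:83662584-83664683) on the + strand span 138906 bp. Ccl22 is at chr8:94745590-94751699 (+) and Ccl24 at chr5:135569937-135573049 (−). Levels differed widely among some neighbours and less among others. Ccl2 and Ccl7 had means of 134 and 166 TPM, Ccl3 and Ccl4 of 115 and 134, and Ccl9 and Ccl6 of 36.2 and 20.3. Ccl11, between Ccl7 and Ccl12, had a mean of 0.11 TPM, against 166 for Ccl7 and 36.7 for Ccl12, and Ccl5 at 811 TPM is followed by Ccl9 at 36.2 TPM.

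**Figure D3:**
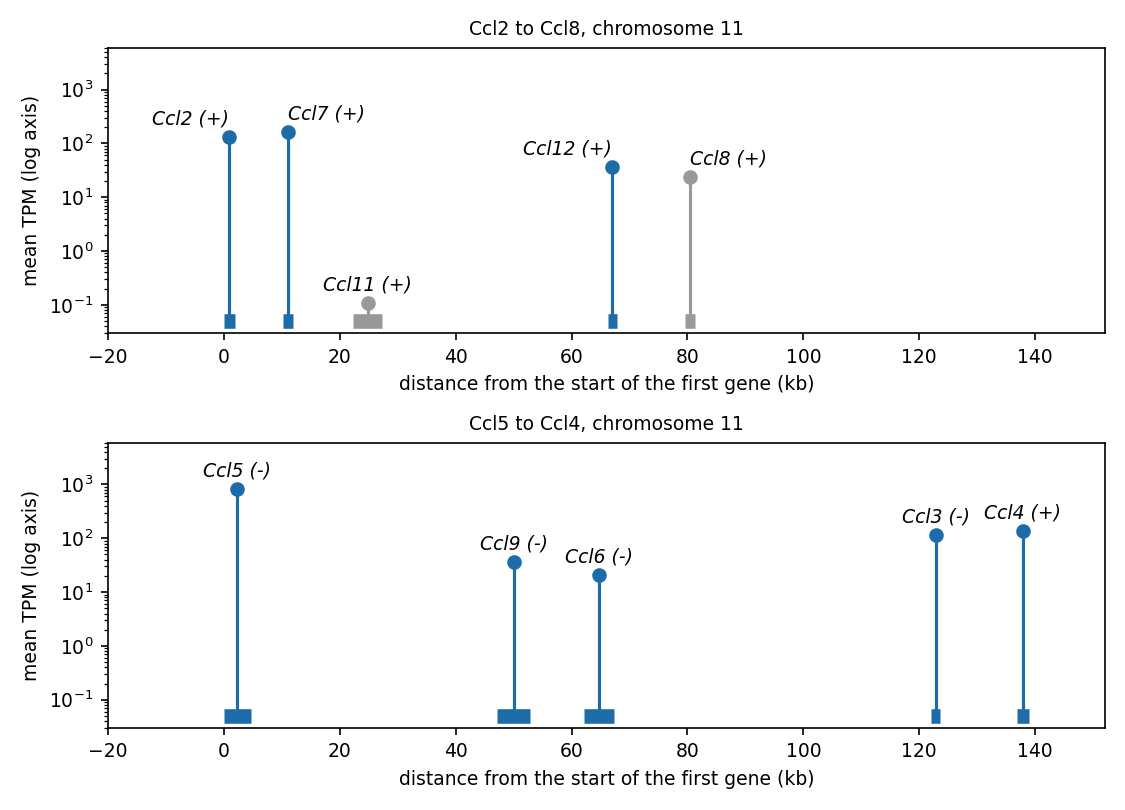
Mean TPM on a log axis against the distance in kb from the start of the first gene, for both chromosome 11 groups. Blue marks members, grey marks other CC ligands, boxes show the extent of each gene and the sign its strand. The member levels range between 36.7 and 166 TPM in the first group and between 20.3 and 811 in the second.

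Gm17268 spans Ccl2 on the opposite strand and E230016K23Rik spans Ccl6 on the opposite strand. Gm17268 had 0 TPM in each library and E230016K23Rik had 0.22, 0 and 0.09. In the kallisto-format table Gm17268 had 8, 0 and 5 estimated counts, and E230016K23Rik had 47.7, 78.4 and 54.5, beside 986, 683 and 399 for Ccl6. No source used here gives the strand setting of the counting, and reads of overlapping genes may not be separable.

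Promoter sequence was taken for Ccl3, Ccl6, Ccl9, Ccl12 and Ccl22, 5 of the 10 members, from RefSeq (GRCm38.p6). The 250 bases before the start of Ccl6 and Ccl9 are printed 5′ to 3′ in the sense of the gene because this pair had the longest exact run shared by any 2 of the 5 promoters, 13 bases, in capitals.
Ccl6, chr11:83593088-83593337 (− strand): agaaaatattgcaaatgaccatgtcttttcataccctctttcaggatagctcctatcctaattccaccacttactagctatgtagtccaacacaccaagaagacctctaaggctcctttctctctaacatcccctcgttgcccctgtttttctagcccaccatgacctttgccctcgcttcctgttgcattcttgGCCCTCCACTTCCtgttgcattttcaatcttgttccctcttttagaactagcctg
Ccl9, chr11:83578637-83578886 (− strand): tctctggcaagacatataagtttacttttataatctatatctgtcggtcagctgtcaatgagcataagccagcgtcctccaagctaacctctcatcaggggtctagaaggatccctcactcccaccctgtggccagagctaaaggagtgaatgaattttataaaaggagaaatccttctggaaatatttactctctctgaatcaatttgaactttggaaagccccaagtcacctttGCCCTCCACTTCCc

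Both strands of these windows were searched for 4 motifs. The κB consensus, bound by NF-κB, was found in 1 of the 5, Ccl9, beginning 35 bases before the start on the opposite strand, against 7.25% of 32841 promoter windows of that length. For AP-1 the pattern was TGANTCA, which allows any base at N and reads the same on both strands. It was also in Ccl9 alone, as TGAATCA, 53 bases before the start, against 6.75% of windows. The interferon-stimulated response element was in none of the 5, against 2.98%. TATAAA was in Ccl9 and Ccl12, against 12.4%. In Ccl12 it began 31 bases before the start on the same strand. In Ccl9 it began 92 bases before the start on the same strand, and 94 and 224 bases before it on the opposite strand. None of these matches overlapped the shared run. A match describes letters in the window and is not a measured site.

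Nuclear RNA includes transcripts that are not fully spliced, and reads of unspliced RNA cannot be told apart from annotated retained-intron isoforms. Transcripts outside the protein-coding class held 56.8%, 56.3% and 45.2% of the TPM of Ccl6 in replicates 1, 2 and 3 (52.8% ± 6.56, SD, n = 3). They are the retained-intron transcripts Ccl6-202 and Ccl6-203, and Ccl6-202 alone held 47.9%, 46.7% and 34.0%. By expected counts, which are not divided by length, the share of Ccl6 was 35.2%, 34.6% and 25.1%. For Ccl2 the retained-intron transcript Ccl2-202 held 15.8%, 20.1% and 20.5% (18.8% ± 2.60). By TPM, Ccl6 stood above and Ccl2 below the median gene in each library, where the median share was 28.2% ± 0.41. That median is over the 7815 detected protein-coding genes that have a transcript outside the protein-coding class. Detected genes without such a transcript were left out of it.

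The retained-intron transcript Ccl5-202 held 4.35%, 5.79% and 9.41% of the TPM of Ccl5. For Ccl12, the processed transcript Ccl12-202 held 3.23%, 1.10% and 3.48% in the RSEM-format values, and 14.1%, 13.7% and 13.2% in the kallisto-format values. Ccl9 depended most on the quantification. Its short processed transcript Ccl9-202 (398 bases, beside 3006 for Ccl9-201) held 7.97%, 1.51% and 25.3% of its TPM in the RSEM-format values, and 50.7%, 45.4% and 59.7% in the kallisto-format values. By expected counts it held 0.549%, 0.0984% and 2.52%. Replicate 3 decides the RSEM-format mean, which was 4.74% without it, against 11.6% over all 3 libraries. Ccl3, Ccl4 and Ccl7 have 1 annotated transcript each. Both transcripts of Ccl24 are protein-coding, and the processed transcript of Ccl22 was at 0 in the RSEM-format values.

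**Figure D4:**
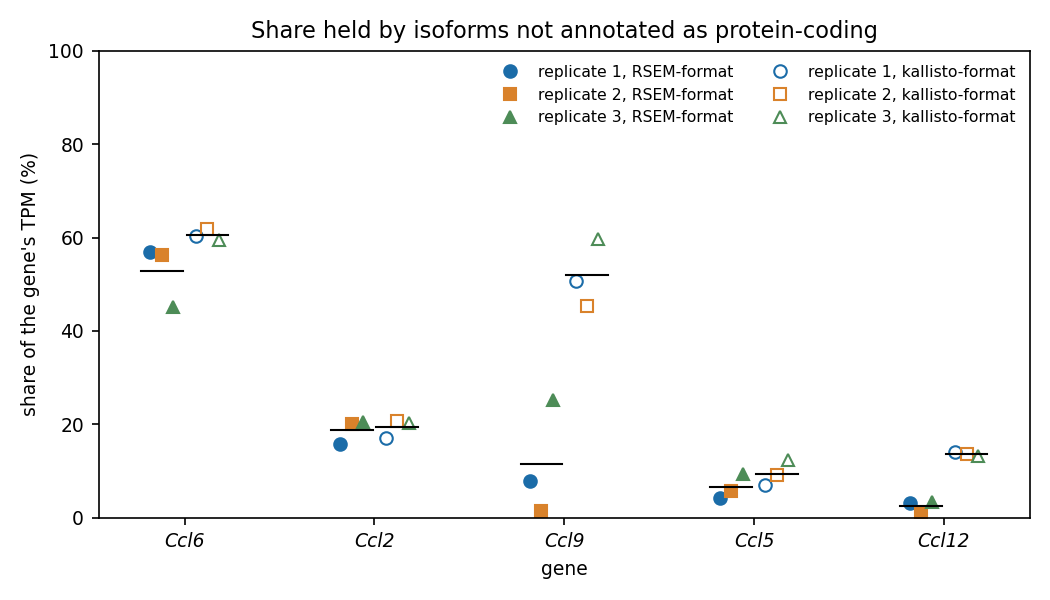
Percent of a gene's TPM held by transcripts outside the protein-coding class, for Ccl6, Ccl2, Ccl9, Ccl5 and Ccl12, by library and quantification. Ccl22 also has such a transcript and is left out. Ccl6 is above 45% in each library by either quantification, and Ccl9 differs most between the quantifications, at means of 11.6% and 51.9%.

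The members' levels by the 2 quantifications were compared after rescaling each to the same sum. The kallisto-format mean was between 0.787 and 1.05 times the RSEM-format mean for 8 members. For Ccl9 it was 1.44 times, at 250 ± 75.9 against 174 ± 49.9 rescaled TPM (SD, n = 3). For Ccl24 it was 16.6 times, at 9.05 ± 0.44 against 0.55 ± 0.24.

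**Figure D5:**
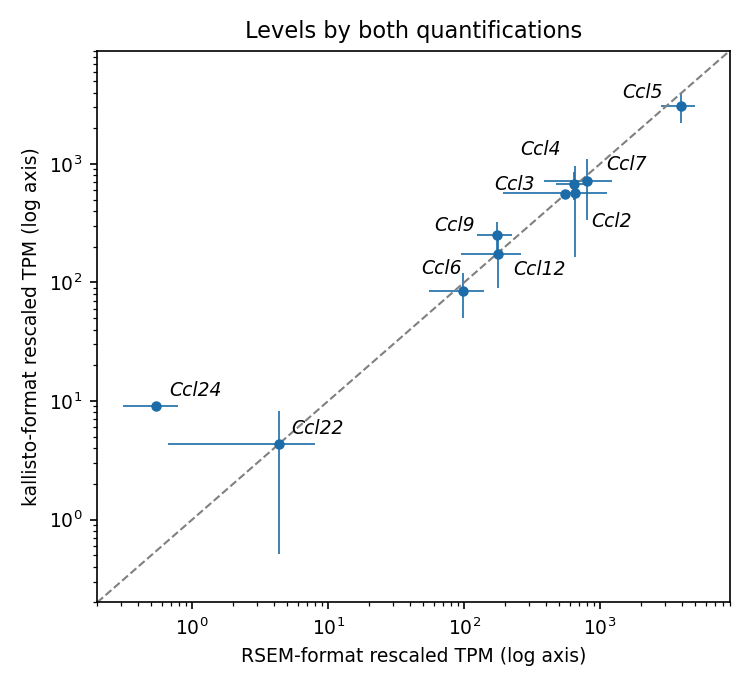
Mean rescaled TPM of each member by the kallisto-format against the RSEM-format values, both axes logarithmic, with SD over 3 libraries as bars (bars below a mean are shortened where they would reach 0) and a dashed line of equality. Ccl24 is the member far from the line.

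The other CC ligands were mostly low. Of 12, 2 were detected, and 7 were at 0 in every library. Ccl8, a further monocyte-attracting ligand next to Ccl12, had 19.6, 25.8 and 26.7 TPM, lowest in replicate 1, where Ccl2, Ccl7 and Ccl12 were highest. Ccl25, known as a thymus and gut ligand of CCR9, had 11.5, 15.2 and 9.87 TPM. Ccl27a and Ccl11 came next, with means of 0.61 and 0.11 TPM.

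Of the 10 CC receptors, 3 were detected. Among them Ccr1, a receptor of Ccl6 and Ccl9 among others, had 12.1, 7.81 and 4.18 TPM, highest in replicate 1 and lowest in replicate 3. Ccr2, the receptor of Ccl2, Ccl7 and Ccl12, had 4.75, 6.37 and 2.98 TPM, highest in replicate 2. Ccr7 came next at 1.53, 0.90 and 0.87 TPM. Among 6 atypical and scavenging receptors 1 was detected, Ccrl2, a receptor-like protein that binds chemerin, at 9.27, 19.7 and 20.1 TPM, lowest in replicate 1. Ackr4 had a mean of 0.547 TPM, Pitpnm3 was listed at 0, 0.01 and 0 TPM, and the remaining 3 were at 0. The members' median log2(TPM + 1) was 5.93. For the 17 ligands of the CXC, CX3C and XC families it was 0.14 ± 0.07, with 5 detected. The 12 CC ligands that are not members had a median of 0, and the members were chosen with earlier results known. These medians therefore do not compare the CC family with the other families.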

How the data were processed

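Ribosomal RNA-depleted total RNA-seq of the nuclear fraction was deposited for 3 libraries. Per the file headers and accompanying notes, the authors aligned to mm10 with GENCODE M21 transcripts; the columns are those RSEM writes, and no source used here names the tool or version. Expected counts are the authors' unnormalised estimated counts per gene or transcript. The deposited TPM values, and posterior mean TPM, are scaled to 1000000 in each library. The bounds of the authors' credibility interval, treated as a score on the TPM scale, come from the same tables, and their level is not stated. A further deposited transcript table with estimated counts and TPM has the columns kallisto writes and was added up by gene. These are the RSEM-format and kallisto-format values.

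Members were found by symbol through the transcript names. Levels are TPM, medians use log2(TPM + 1), and detection means that no library is under 1 TPM. Rows with no annotated gene held 0.827%, 0.275% and 0.0547% of counts and were left out. TPM was also rescaled over protein-coding genes not encoded in the mitochondrion. With 1 group, no test was made. Precision rests on the expected counts, whose counting error alone is 1.12% for Ccl5 and 15.7% for Ccl22 (1 over the square root of the count, averaged over libraries). The members and lists were chosen with earlier results of these data known. The rule for named genes took all members and the 4 highest by mean TPM of each list of CC ligands and receptors; markers are given by count or example, and a few items within the rule are left unreported. Alternatives covered quantification, estimate, scaling, filters, pseudocount, unit and omission of each replicate. Promoter windows came from RefSeq GRCm38.p6, and coding sequences were aligned with Biopython 1.88. Python 3.11.15, pandas 2.3.3, numpy 2.4.6 and matplotlib 3.10.9 were used.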

Additional observations from a re-analysis of the deposited data

Results flagged for a closer look

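Ccl24 had a signal in the kallisto-format table that the levels above do not use, above the limit of 3 counts that a count of 0 allows. Its estimated counts there were 100, 105.94 and 88.9558 in replicates 1, 2 and 3, against 3, 3 and 2 expected counts in the RSEM-format table. All of the kallisto-format counts were assigned to Ccl24-201. Of the 1265 words of 31 bases in Ccl24-201, 1 occurs in a transcript of another gene. A higher kallisto-format value was not particular to Ccl24. The T cell marker Cd3d had 0.10, 0.14 and 0.10 rescaled TPM by RSEM-format values, against 8.91, 18.3 and 9.95 by kallisto-format values. Ccl11 had 0.50, 0.41 and 0.68 against 3.72, 3.20 and 2.74, while Ccl19 and Ccl20 were at 0 by both. The cause was not tested. No single-sample outlier test applies to groups of 3 libraries, and 1 group allows no difference between groups.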

How the results depend on the processing

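The count of detected members (8) was between 8 and 10 under every alternative run. The members' median difference stayed positive throughout, while counts and shares cannot change sign. Leaving the omission of replicates aside, 14 alternative values of medians and shares stayed within 1 SD and 16 did not, and for single members' levels 17 did and 3 did not. Of alternative counts, 10 were within 1.5 times the reported count and 2 were not. The members' median difference from detected protein-coding genes (2.69) was 1.72 with kallisto-format TPM, 3.15 with rescaled TPM, 3.49 with rescaled kallisto-format TPM (chosen after seeing the data), 5.49 against all protein-coding genes, 3.45 with only detected members and 1.90 with means. The share held by Ccl5 (56.1%) was 50.7% with kallisto-format TPM and 38.7% with expected counts. Neighbouring pairs without overlap (5) numbered 2 with kallisto-format TPM and 3 after rescaling it, which was also chosen after seeing the data. Isoform shares with kallisto-format TPM were 9.49% for Ccl5, 60.6% for Ccl6, 51.9% for Ccl9, 13.7% for Ccl12 and 5.02% for Ccl22. With expected counts they were 25.3% for Ccl2 and 31.6% for Ccl6, and with posterior mean TPM 22.7% for Ccl22. The cause was not tested. Ccl24 (0.55 rescaled TPM) was 9.05 with kallisto-format values and 1.14 with posterior means, and Ccl9 (174) was 250 with kallisto-format values. With 3 libraries, omitting 1 cannot shift a mean by as much as 1 SD, so these omissions do not bear on stability. Some shifts were still large. Without replicate 1 the rescaled TPM of Ccl2 was 392 (654 over all libraries) and of Ccl22 2.21 (4.34), without replicate 3 the isoform share of Ccl9 was 4.74%, and the number of members past a ratio of 2 (4) ranged between 0 and 3, at 0 without replicate 1. No paired analysis was possible because the 3 libraries form 1 group. Depth limits Ccl22 and Ccl24, while TPM of short genes depends on the estimated effective length.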
